A study of Mus musculus with 19 samples.

Results

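Igll1, Vpreb1, Vpreb2 and Vpreb3, the genes of the surrogate light chain and its relative, were followed across 19 mouse lymphomas. They were chosen by name, as the genes of the surrogate light chain and of the protein whose name and sequence family they share, and they are 4 of the 21086 genes in the expression table. All 4 passed the filter on low values that was applied before testing, which asked for 4 or more libraries with a normalised value of 1 or more. Bulk polyadenylated RNA was sequenced from lymphomas that arose in Eμ-Myc mice, whose Myc transgene is driven in B lineage cells by the enhancer of the immunoglobulin heavy chain locus, and every group carried this transgene. The groups were early wild type (Bptf+/+, 6 tumours, onset at 9 to 17 weeks), late wild type (Bptf+/+, 5 tumours, 28 to 76 weeks), early heterozygous (Bptf+/Δ, 4 tumours, 8 to 13 weeks) and late heterozygous (Bptf+/Δ, 4 tumours, 30 to 66 weeks). They are called WT_early, WT_late, HET_early and HET_late, with a number that only names a tumour. No treatment was given in the labels, and the extent of the deletion in the Δ allele is not given in the sources used here. Tumours were taken when mice showed clinical signs, as whole frozen tissue, so each library also holds RNA of the cells around the lymphoma.

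Igll1 encodes λ5, and Vpreb1 and Vpreb2 encode VpreB proteins. One λ5 and one VpreB together form the surrogate light chain, which pairs with a newly made immunoglobulin μ heavy chain and with the signalling chains Cd79a and Cd79b to form the pre-B cell receptor. Pro-B and large pre-B cells make it before a conventional κ or λ light chain exists, and its genes are switched off as cells move on. Vpreb3 resembles the VpreB proteins and is retained inside the cell, where it binds nascent μ chains, but it is not a part of the surrogate light chain, and its RNA persists in later B cells. In Eμ-Myc mice lymphomas can arise from pre-B or from more mature B cells, and these genes are among those that tell the stages apart.

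In GENCODE M21 (build GRCm38), Igll1 (ENSMUSG00000075370.12) lies on chromosome 16 from 16860671 to 16863985, on the minus strand. Vpreb1 (ENSMUSG00000059305.12) lies 4.4 kb away, from 16868403 to 16870843 on the same strand. Vpreb2 (ENSMUSG00000059280.4) is 1109.6 kb from Vpreb1, from 17980428 to 17981273 on the plus strand. Vpreb3 (ENSMUSG00000000903.3) is on chromosome 10, from 75943057 to 75949657, on the plus strand. The annotated span of Vpreb1 overlaps that of Top3b, a topoisomerase gene on the other strand, by 108 bases. Top3b was at 335.7 to 797.6 in all 19 tumours, while Vpreb1 had no read in 5 of them.

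Vpreb1 and Vpreb2 are near-identical copies, and their sequences are printed because this limits how far their values can be told apart. Over the 429 coding bases 9 differ (97.9% identity). The most divergent stretch, coding bases 268 to 387 of the GENCODE transcripts, holds 6 of them, printed 5′ to 3′ with the differing bases in capitals.
Vpreb1 coding bases 268 to 387: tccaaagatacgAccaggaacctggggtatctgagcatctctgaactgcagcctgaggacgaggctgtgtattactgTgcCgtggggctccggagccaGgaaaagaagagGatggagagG
Vpreb2 coding bases 268 to 387: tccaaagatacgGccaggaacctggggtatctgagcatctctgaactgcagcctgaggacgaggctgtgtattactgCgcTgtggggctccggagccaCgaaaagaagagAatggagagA
The copies are as close upstream. In the 106 bases before the RefSeq start of Vpreb1 (GRCm38.p6, chr16:16869256-16869361, minus strand) and the matching bases before Vpreb2 (chr16:17980315-17980420, plus strand), 2 differ (98.1% identity). They are in capitals.
Vpreb1 upstream: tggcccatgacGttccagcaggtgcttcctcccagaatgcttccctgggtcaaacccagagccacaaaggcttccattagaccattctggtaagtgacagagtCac
Vpreb2 upstream: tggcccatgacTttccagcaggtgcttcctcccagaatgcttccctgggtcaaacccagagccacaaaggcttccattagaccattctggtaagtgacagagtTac
Of all 36-base windows of the Vpreb2 transcript, 45.3% also occur in Vpreb1, and of all 100-base windows 14.7% do. The read length, the strand setting and the handling of reads that match both genes are not given in the sources used here. How reads were divided between them is thus uncertain. No 36-base window of Vpreb1 occurs in Igll1 or Vpreb3.

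The 250 bases before the RefSeq starts of Igll1, Vpreb1 and Vpreb3 are printed because Igll1 and Vpreb1 had similar patterns over the tumours and Vpreb3 had another. A short set of motifs was searched on both strands, chosen after the values were seen. These were the EBF core CCCNNGGGA, the E2A E-box CAGGTG, the Ikaros core TGGGAA and the octamer ATTTGCAT. Matches are in capitals, and CACCTG is CAGGTG on the other strand.
Igll1, chr16:16863986-16864235, minus strand: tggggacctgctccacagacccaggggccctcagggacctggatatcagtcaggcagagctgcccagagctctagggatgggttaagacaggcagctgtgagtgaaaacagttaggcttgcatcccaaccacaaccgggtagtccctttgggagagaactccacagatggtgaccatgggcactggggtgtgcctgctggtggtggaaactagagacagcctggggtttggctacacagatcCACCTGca
Vpreb1, chr16:16869256-16869505, minus strand: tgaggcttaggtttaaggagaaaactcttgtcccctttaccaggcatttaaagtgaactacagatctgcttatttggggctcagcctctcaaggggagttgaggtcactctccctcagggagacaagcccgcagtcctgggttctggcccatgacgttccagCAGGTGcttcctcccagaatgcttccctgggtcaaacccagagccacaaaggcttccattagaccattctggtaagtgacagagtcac
Vpreb3, chr10:75948050-75948299, plus strand: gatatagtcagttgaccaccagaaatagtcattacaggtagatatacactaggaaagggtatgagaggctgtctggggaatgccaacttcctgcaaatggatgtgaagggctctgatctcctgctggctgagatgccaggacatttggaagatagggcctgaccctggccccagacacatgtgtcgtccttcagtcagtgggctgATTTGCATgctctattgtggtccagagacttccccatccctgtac
The E-box occurred once in the Igll1 window, at bases 8 to 3 before the start, and once in the Vpreb1 window, at bases 88 to 83. Among windows of all 32817 RefSeq promoters, 17.2% hold it. The octamer occurred once in the Vpreb3 window, at bases 45 to 38, against 1.6% of all promoters. None of the 3 windows held the EBF core (5.6% of promoters) or the Ikaros core (21.6%). Only exact matches within 250 bases were sought, so sites that vary from these letters or lie elsewhere would be missed. The search cannot show that a factor has no site at a gene. The Vpreb3 window lies inside the GENCODE span of the gene, which starts at 75943057. An exon of a non-coding Vpreb1 transcript lies within the Vpreb1 window.

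Values are normalised read counts, that is reads divided by 1 size factor per library, and 1 read was worth 0.7475 to 1.5056 units. Depth was 8297856 to 12497732 reads per library. A count of 0 allows up to 3 reads, which is 2.24 to 4.52 units depending on the library, for counting error only. Bptf was below every wild-type tumour in every heterozygous one (407.6 to 1573.32 against 1664.69 to 2585.73), as the labels have it.

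Some libraries stood apart, and they touch every result below. The summed level of 11 B lineage markers was 1020.9 in HET_early_2, where Cd79a was at 38.5 and Pax5 at 30.6. That library held summed levels of 784968.7 for 6 stromal and 754520.9 for 4 cartilage markers. The B lineage sums were next lowest in WT_late_1 (10500.9), HET_late_1 (14583.3) and HET_late_2 (19710.2), and were 23268.2 to 45645.1 in the other 15 tumours. In those 3 libraries the sums of 12 T cell markers were 9163.1, 6481.5 and 8785.7, against 120.9 to 2771.3 in the other 16 tumours. Cd4 (5375.4, 2233.7 and 2357.7) and Cd8b1 (2411.1, 1614.3 and 3847) made up most of these sums. The T cell markers did not all go the same way. Cd3e was at 7.4, 37.5 and 108 there, against 131.5 in WT_late_2 and 105.4 in HET_late_4, so a high sum need not mean more T cells. Plasma cell markers summed to 820787.7 in HET_late_4, and salivary gland markers to 734306 in WT_early_6. The most abundant transcript was Eef1a1 in 16 libraries and Col2a1, Igha and Bpifa2 in HET_early_2, HET_late_4 and WT_early_6. The tests of onset are therefore also given without these last 3 libraries, and without the 3 libraries with a T cell sum over 5000 (an alternative chosen after the data were seen). In bulk tissue, fewer cells of a type and less RNA per cell cannot be told apart.

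Igll1, which encodes λ5, was abundant in 2 of the 19 tumours, 1 of each genotype and both early. In WT_early_1 to WT_early_6 its normalised count was 0.87, 0, 16.71, 26.91, 3936.3 and 33.06. In WT_late_1 to WT_late_5 it was 0, 0, 34.94, 7.25 and 4.71. WT_early_5 stood far above every other wild-type tumour, and the remaining early and late wild-type tumours overlapped. In HET_early_1 to HET_early_4 it was 1071.81, 0, 7.35 and 34.52. In HET_late_1 to HET_late_4 it was 0, 0, 0.79 and 0, a single read in 4 libraries. The early heterozygous tumours lay above the late ones except for HET_early_2, the library with few B lineage transcripts. Together WT_early_5 and HET_early_1 held 96.9% of the 5753 Igll1 reads, and the step from HET_early_1 down to the next tumour, WT_late_3, was 30.67-fold. From WT_late_3 to WT_early_6, ranks 3 to 5, the values were 34.94, 34.52 and 33.06 (29, 41 and 36 reads), closer than counting error can part.

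Vpreb1, the main VpreB gene here, was high in the same 2 tumours. It was 0.87, 0, 6.88, 12.71, 2093.66 and 20.2 in WT_early_1 to WT_early_6. It was 0, 2.04, 46.99, 2.42 and 1.18 in WT_late_1 to WT_late_5. As for Igll1, WT_late_3 was the highest of the late wild-type tumours and lay above 5 of the 6 early ones. Vpreb1 was 385.52, 0, 24.49 and 43.78 in HET_early_1 to HET_early_4. It was 0, 1.44, 0.79 and 0 in HET_late_1 to HET_late_4. Again only HET_early_2 overlapped the late heterozygous tumours. The 2 highest libraries held 94.0% of the 2941 Vpreb1 reads. In the 7 tumours with enough reads for a ratio, there were 0.3 (HET_early_3) to 2.78 (HET_early_1) Igll1 reads per Vpreb1 read.

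Vpreb2, the second VpreB gene, had 59 reads in all. It was at 23.28 in HET_early_1, 23.14 in WT_early_5, 4.21 in HET_early_4, 2.41 in WT_late_3 and 1.44 in HET_late_2, and it was 0 in the other 14 tumours. The first 4 of these are also the 4 tumours with the most Vpreb1. Pooled over all tumours, Vpreb2 made up 1.97% of the reads assigned to either copy (95% exact binomial interval 1.5 to 2.53). That interval leaves out the spread between tumours, and 2378 of the pooled reads come from WT_early_5. The Vpreb2 share was 1.09% (0.72 to 1.6) in WT_early_5 and 5.69% (3.72 to 8.29) in HET_early_1. These 2 intervals do not overlap, and all 3 cover counting error only.

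Vpreb3 was detected in every tumour, and WT_early_5 and HET_early_1 did not stand apart for it. It was 2009.11, 560.02, 2734.85, 1982.34, 3128.92 and 2040.66 in WT_early_1 to WT_early_6. It was 65.46, 821.51, 2824.3, 3259.94 and 3532.84 in WT_late_1 to WT_late_5. The wild-type groups overlapped over nearly their whole range, with WT_late_1 lowest. Vpreb3 was 2999.39, 5.32, 4024.66 and 2321.9 in HET_early_1 to HET_early_4. It was 15.68, 72.01, 2949.92 and 182.18 in HET_late_1 to HET_late_4. The 5 tumours under 200 units were HET_early_2, HET_late_1, HET_late_2, WT_late_1 and HET_late_4, and the first 4 of these have the 4 lowest B lineage sums. The part of cell content in this was not tested. The markers in those sums did not all go the same way in WT_late_1, HET_late_1 and HET_late_2. Pou2af1 was at 4.6, 93.2 and 216 there, against a median of 7345.11 over all tumours. Cd22 was at 2414.8, 4216.4 and 1562.7, against a median of 2069.12.

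Per kilobase of GENCODE exon, with the exons of all transcripts merged, the median level was 2.2 for Igll1, 1.7 for Vpreb1, 0 for Vpreb2 and 2375.6 for Vpreb3. For Vpreb1 the merged length was 1199 bases and its longest coding transcript 766, so these levels depend on the exons counted. In WT_early_5 the per-kilobase levels of Igll1 (1819), Vpreb1 (1746.2) and Vpreb3 (3642.5) came within the same order of magnitude. In HET_early_1 they were 495.3, 321.5 and 3491.7.

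**Figure D1:**
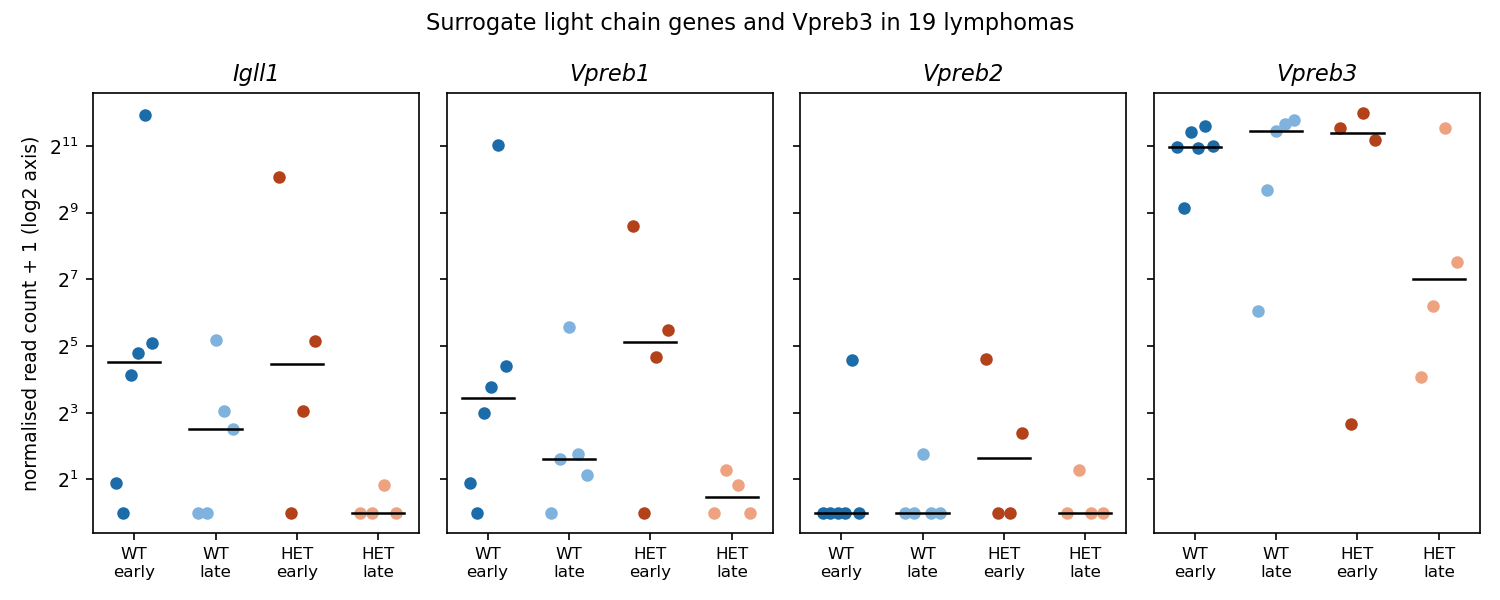
Normalised read count plus 1 (log2 axis) of Igll1, Vpreb1, Vpreb2 and Vpreb3 by group, with 1 point per tumour and a bar at the group median. WT_early_5 and HET_early_1 stand far above the rest for Igll1 and Vpreb1, at 3936.3 and 1071.81 for Igll1, whereas Vpreb3 is above 500 in 14 of 19 tumours.

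Late tumours were compared with early ones to ask whether the age at onset goes with the level of these genes. Averaged over genotype, all 4 genes had lower fitted means in late tumours, as did 56.0% of all genes, and none passed limma's test. Igll1 differed by -3.35 ± 1.38 (SE) on the log2(value + 1) scale (limma, Benjamini-Hochberg adjusted p = 0.206) and Vpreb1 by -2.99 ± 1.26 (limma adjusted p = 0.213). Vpreb2 differed by -0.92 ± 0.66 (limma adjusted p = 0.463) and Vpreb3 by -1.37 ± 1.16 (limma adjusted p = 0.537). So 0 of 4 genes were called, 2 of them with an unadjusted p under 0.05, where limma called 87 of 19927 genes (0.437%). The count models gave larger differences for the sparse genes. With edgeR on whole reads Igll1 differed by -7.85 and passed (Benjamini-Hochberg adjusted p = 0.0482, edgeR calling 2.70% of genes), while Vpreb1 at -6.27 did not (edgeR adjusted p = 0.0565). DESeq2, which called 9.42% of genes, gave no p-value for either. Without the 3 libraries led by another transcript, the limma differences were -4.01 for Igll1, -3.63 for Vpreb1 and -2.5 for Vpreb3 (limma adjusted p = 0.181, 0.173 and 0.195). Without the 3 libraries with a T cell sum over 5000 they were -2.98, -2.8 and 0.24 (limma adjusted p = 0.488, 0.47 and 0.951), so the direction of the Vpreb3 difference turned. Limma then called 0% of all genes, with 2537 at an unadjusted p under 0.05. The 3 libraries left out (WT_late_1, HET_late_1 and HET_late_2) are all late, with Vpreb3 at 65.46, 15.68 and 72.01. Leaving them out was thus bound to raise the late Vpreb3 mean, and nothing about T cell content can be read from the turn.

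Within wild-type tumours the late minus early difference was -2.34 ± 1.8 (SE) for Igll1 and -1.83 ± 1.63 for Vpreb1 (limma adjusted p = 0.961 and 0.975). It was -0.41 ± 0.86 for Vpreb2 and -0.72 ± 1.51 for Vpreb3 (limma adjusted p = 0.983 for both). Limma called 0 of the 4 genes and 0% of all genes here, with 966 at an unadjusted p under 0.05, and edgeR called 0 and DESeq2 121. A single tumour carried much of the difference: without WT_early_5 it was -0.84 for Igll1 and -0.4 for Vpreb1. The Vpreb3 difference was 0.3 without WT_late_1.

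Within heterozygous tumours the difference was -4.36 ± 2.1 (SE) for Igll1, -4.16 ± 1.91 for Vpreb1, -1.42 ± 1.01 for Vpreb2 and -2.02 ± 1.76 for Vpreb3. None passed (limma adjusted p = 0.261, 0.238, 0.445 and 0.543). Limma called 0 of 4 members and 0% of all genes, with 3887 at an unadjusted p under 0.05, where edgeR called 0 and DESeq2 1754. Without HET_early_2, whose B lineage markers were near absent, the differences were -5.88 for Igll1, -5.72 for Vpreb1 and -4.25 for Vpreb3. Without HET_early_1 they were -2.53 for Igll1 and -2.85 for Vpreb1. The Vpreb3 difference was 0.18 without the 3 libraries with a T cell sum over 5000, which include HET_late_1 and HET_late_2, both low for Vpreb3. Apart from HET_early_2, the early heterozygous tumours were at 7.35 to 1071.81 for Igll1 and 24.49 to 385.52 for Vpreb1. The late ones were at 0 to 0.79 and 0 to 1.44. The share of all genes that part these tumours in the same way was not counted, so nothing particular to these genes can be read from this. With HET_late at 1 Igll1 read and 2 Vpreb1 reads in all, the size of a fitted difference depends on the constant added: the Igll1 difference was -6.22 with 0.1 added in place of 1.

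The authors' deposited table gave a log2 fold change of -8.04 for Vpreb1 in late against early heterozygous tumours, with an adjusted p of 0.00142. It called 2.94% of genes lower in that comparison. For Igll1 the authors' deposited table gave -10.11 with no adjusted p, and for Vpreb3 -1.155 with an adjusted p of 0.758. In late against early wild-type tumours the authors' deposited table gave -6.135 for Igll1 and -5.06 for Vpreb1, both with no adjusted p, and 0.034 for Vpreb3 (adjusted p 0.986).

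**Figure D2:**
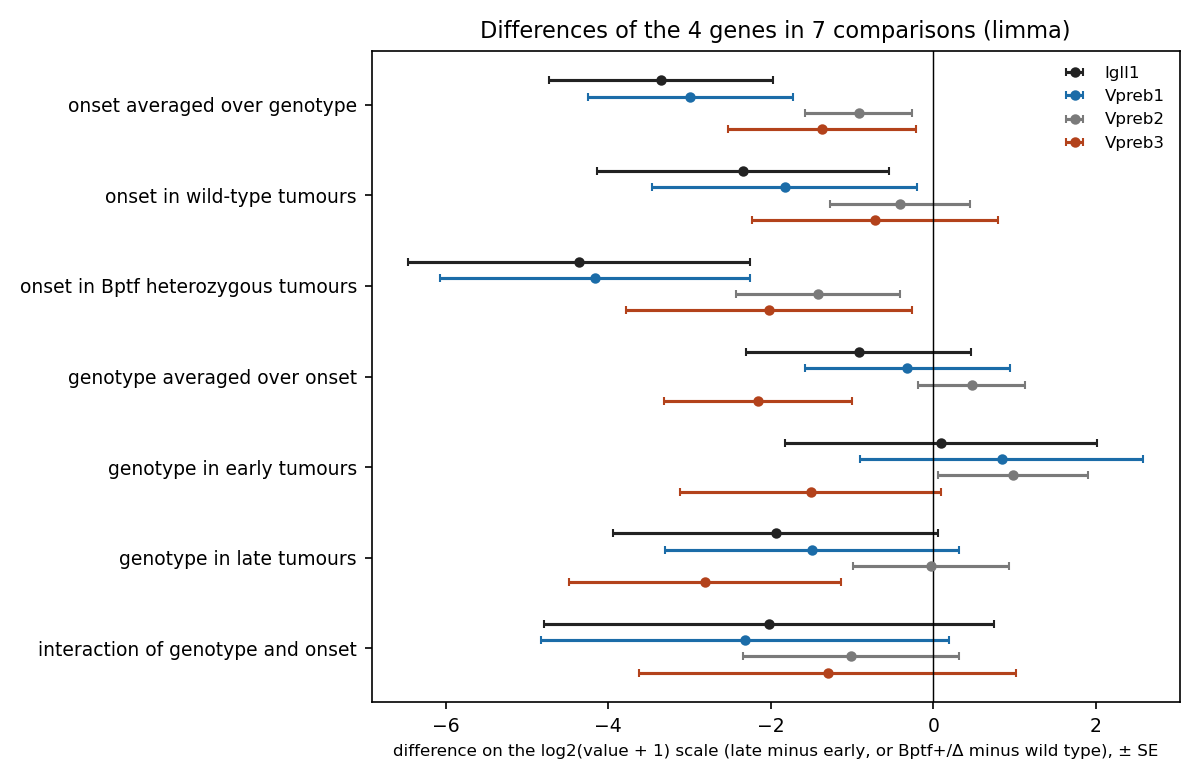
Differences of the 4 genes in 7 comparisons on the log2(value + 1) scale (limma, ± SE), late minus early or heterozygous minus wild type. The most negative values are those of Igll1 (-4.36) and Vpreb1 (-4.16) for onset in heterozygous tumours, and none of the 4 genes passes in any comparison.

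Heterozygous tumours were compared with wild-type ones to ask whether a single Bptf allele goes with another level. Averaged over onset the difference was -0.92 ± 1.38 (SE) for Igll1, -0.32 ± 1.26 for Vpreb1, 0.47 ± 0.66 for Vpreb2 and -2.16 ± 1.16 for Vpreb3. None passed (limma adjusted p = 0.781, 0.926, 0.765 and 0.502), as for all genes (0% called, 1988 with an unadjusted p under 0.05, edgeR 0, DESeq2 26). In early tumours the differences were 0.09, 0.84, 0.98 and -1.51, and 0 of 4 genes were called (0% of all genes by limma, 2293 with an unadjusted p under 0.05, edgeR 0, DESeq2 409). For Vpreb3 this rested on HET_early_2, without which it was 0.72. In late tumours they were -1.94, -1.49, -0.03 and -2.81, again with 0 of 4 called (0% of all genes by limma, 1222 with an unadjusted p under 0.05, edgeR 0, DESeq2 32). Vpreb3 was below 200 in 3 of 4 late heterozygous and 1 of 5 late wild-type tumours. The T cell sum was 1928.9 to 8785.7 in late heterozygous and 233.2 to 9163.1 in late wild-type tumours, and without the 3 libraries with a sum over 5000 the Vpreb3 difference was -1.63. Without HET_late_3 the late Vpreb3 difference was -4.21, and without HET_late_1 it was -1.72. The authors' deposited table gave -0.895 for Igll1, 0.1 for Vpreb1 and -0.409 for Vpreb3 for genotype over both onsets (adjusted p 0.75, 0.976 and 0.839).

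The difference between the onset effects of the genotypes was itself tested. The interaction was -2.02 ± 2.77 (SE) for Igll1, -2.32 ± 2.51 for Vpreb1, -1.01 ± 1.33 for Vpreb2 and -1.3 ± 2.32 for Vpreb3. None passed (limma adjusted p = 0.871, 0.834, 0.866 and 0.905), nor did any other gene by limma (0%, 1382 with an unadjusted p under 0.05, edgeR 0, DESeq2 96). The onset effects of the genotypes were therefore not shown to differ.

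WT_early_5 and HET_early_1 were separated from the rest by the widest step in Igll1, so the relations between the genes were taken over the other 17 tumours. Igll1 and Vpreb1 were correlated on the log2(value + 1) scale (Pearson r = 0.91, permutation p = 2e-05, the smallest that 100000 resamples can give, with adjustment over 6 pairs p = 0.00012). By rank the relation was as close (Spearman's rho = 0.88, permutation p = 4e-05, adjusted p = 0.00024). Of the 17 tumours, 7 had no Igll1 read and 5 had no Vpreb1 read, and others had only 1 or 2 reads of a gene. Such values cannot be told from 0, and their part in r, here and for the pairs with Vpreb3, was not tested. On leaving out WT_late_3 and HET_early_4, which lay farthest from the median of Igll1, r was 0.87. In the 10 wild-type tumours among them r was 0.9 (permutation adjusted p = 0.00156). In the 7 heterozygous ones r was 0.96 (exact permutation adjusted p = 0.114), and it rested on HET_early_3 and HET_early_4, without which it was 0.38. With HET_early_1 left in, the 8 heterozygous tumours gave an exact permutation adjusted p of 0.0143.

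Igll1 and Vpreb3 were also related over the 17 tumours (r = 0.67, permutation p = 0.0003, adjusted p = 0.0009, rho = 0.69, permutation p = 0.00298, adjusted p = 0.00894), with r at 0.66 without the same 2 tumours. Vpreb1 and Vpreb3 gave r = 0.62 (permutation p = 0.00154, adjusted p = 0.00308, rho = 0.65, permutation p = 0.00638, adjusted p = 0.0128), and r = 0.62 without those 2. Among these 17 tumours neither passed within a genotype. For Igll1 r was 0.66 in wild-type (permutation adjusted p = 0.0544) and 0.71 in heterozygous tumours (exact permutation adjusted p = 0.114), and for Vpreb1 0.55 (permutation adjusted p = 0.102) and 0.72 (exact permutation adjusted p = 0.133). This depended on leaving out the 2 tumours that stood apart. With WT_early_5 left in, the permutation adjusted p in wild-type tumours was 0.0249 for Igll1 and 0.0257 for Vpreb1, and by rank 0.0871 and 0.131. With HET_early_1 left in, the exact permutation adjusted p in heterozygous tumours was 0.0452 and 0.0491, and by rank 0.0643 and 0.0763. The tumours with the fewest B lineage transcripts are low for both genes of each pair, and the part of this in r was not tested. Vpreb2 had reads in 3 of the 17 tumours, too few to read a relation from.

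**Figure D3:**
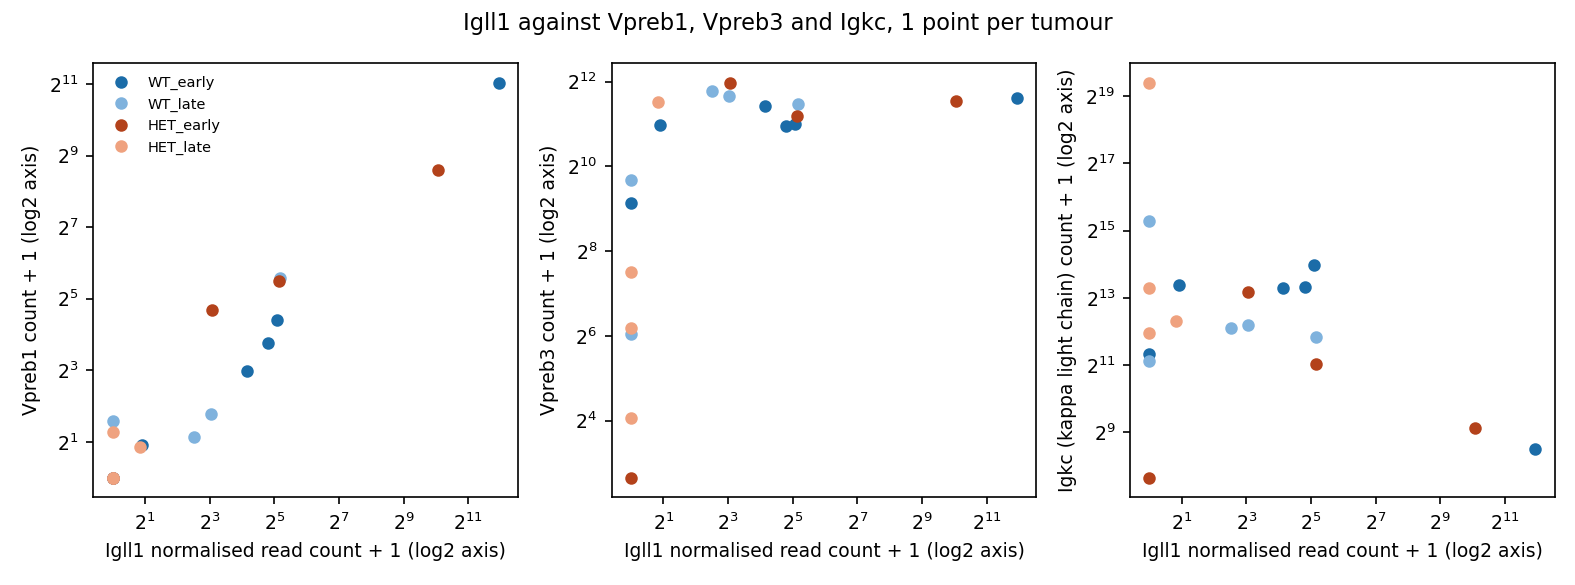
Igll1 against Vpreb1, Vpreb3 and Igkc, as normalised read counts plus 1 on log2 axes, with 1 point per tumour coloured by group. Vpreb1 follows Igll1, Vpreb3 is high with and without Igll1, and the 2 tumours with the most Igll1 are at 361.4 and 564.3 for Igkc.

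The 2 tumours with abundant surrogate light chain transcripts are described beside lists of other B cell genes, with no test, since they were singled out by these values. Igkc, the κ light chain constant region, was 361.4 in WT_early_5 and 564.3 in HET_early_1. Among the other tumours only HET_early_2 was lower, at 200.7, and the rest were at 2094.6 to 689409.4. There were 0.09 and 0.53 Igkc units per Igll1 unit in these 2 tumours, and 60.68 to 601.47 in the 5 others with enough Igll1 reads. Iglc1, a λ constant region, was 7.1 in WT_early_5 and 78.2 in HET_early_1, and was also low in tumours with little Igll1 such as HET_late_3 (9.4). Ighm, the constant region of the μ heavy chain that the surrogate light chain pairs with, was 4729.4 and 18682.6.

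Of the 15 other pro-B and pre-B genes on the list, 4 (Dntt, Cd93, Erg and Bok) had their 2 highest values in these 2 tumours, as did 0.642% of all genes tested. Dntt, the terminal transferase that adds bases at heavy chain joints in pro-B cells, was at 552.8 and 244, against 0 to 87.6 elsewhere. Erg, a transcription factor of early progenitors, was at 845.7 and 229.1, with HET_early_2 next at 180.8. Bok, an apoptosis gene, followed the same order, at 354.3 and 297.1, with HET_early_2 next at 176.8. Cd93 was at 4421.4 and 6589.2, with WT_late_3 next at 4329.2. The sum of 5 endothelial markers was 3565.1 in WT_early_5 and 4648.5 in HET_early_1. Over all tumours it was 1400.2 to 7481, highest in HET_early_2, and its part in the levels of these 4 genes was not tested. The other 11 genes of the list had at least 1 of their 2 highest values elsewhere. Rag1, the recombinase subunit, was 3130.7 and 3265.7 there, but 5366.7 in WT_late_3, 4451.9 in HET_early_4 and 4020.9 in WT_early_2, which had no Igll1 read. Rag2, its partner, was highest in WT_late_3 (688) and Il7r, the receptor for interleukin-7, in HET_early_3 (2789.5). Flt3, a receptor of early progenitors, was 17.8 and 23.3 in these tumours and up to 1524.1 in WT_late_1, and Arpp21 was 549.2 in WT_early_5 but 19.6 in HET_early_1. Of 16 transcription factors of early B cells, 2 (Ebf1 and Myb) had their 2 highest values in WT_early_5 and HET_early_1. So did 0 of 14 pre-B receptor partners and 0 of 15 genes of conventional light chains and mature B cells. Ebf1, which activates Igll1 and Vpreb1 in B cell progenitors, was at 2529.8 and 2267.5 in these tumours, but was 1217 in WT_late_2 without an Igll1 read.

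**Figure D4:**
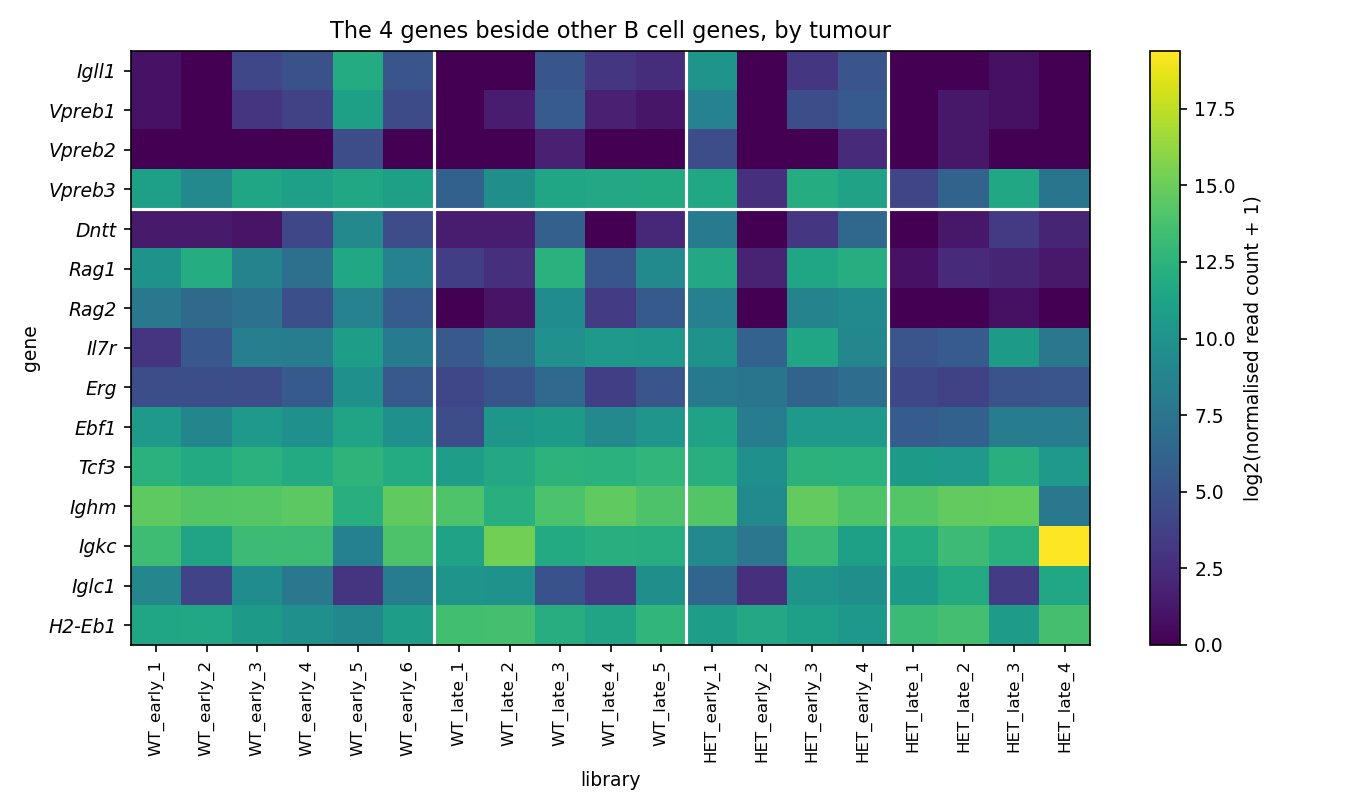
log2(normalised read count + 1) of the 4 genes and 11 other B cell genes (rows) in 19 tumours (columns, ordered by group), with the colour scale at the right. The rows of Igll1, Vpreb1, Dntt and Erg are brightest in columns WT_early_5 and HET_early_1, where the row of Igkc is darker than in every other column but HET_early_2. Rag1 and Rag2 are dark in the late heterozygous columns and also in columns of other groups, such as WT_late_1, WT_late_2 and HET_early_2.

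The other genes of the pathway were counted for late against early tumours, averaged over genotype. Over all genes tested, 8772 had higher and 11155 lower fitted means in late tumours (56.0% lower), the share to set beside each list below. Of 14 partners and signalling genes of the pre-B cell receptor, 11 had higher and 3 lower fitted means in late tumours, with a median difference of 0.55 against -0.08 over all genes, and none passed limma's test. Cd79a differed by -0.29, Cd79b by 0.75, Ighm by -0.22, Syk, the kinase that the receptor recruits, by 0.4, and Blnk, its adaptor, by 0.81 (limma adjusted p = 0.895, 0.523, 0.915, 0.549 and 0.242). Without the 3 libraries with a T cell sum over 5000 the list stood at 12 higher and 2 lower, with a median of 0.37, and without the 3 libraries led by another transcript at 8 and 6, with a median of 0.15.

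Of 16 transcription factors of early B cells, 5 had higher and 11 lower means, with a median of -0.33, and none passed. Ebf1 differed by -2.1 (limma adjusted p = 0.119), Pax5, the factor of B cell identity, by -0.4 (limma adjusted p = 0.798) and Tcf3, which encodes E2A, by -0.44 (limma adjusted p = 0.517). Without the 3 libraries with a T cell sum over 5000 the list stood at 7 higher and 9 lower, with a median of -0.06, and without the 3 libraries led by another transcript at 5 and 11, with a median of -0.65, and none was called in either fit. Of 15 other pro-B and pre-B genes, 12 had lower means in late tumours, with a median of -1.55. Cd93, a surface protein of immature B cells, fell by 2.54 on the log2 scale (limma adjusted p = 0.0467), 1 of 15 against 0.191% of all genes called lower. Endothelial cells also make Cd93, and it was 2222.5 in HET_early_2, where Pax5 was at 30.6 and the sum of 5 endothelial markers was highest, at 7481. Of these 5 markers 4 had lower means in late tumours, with a median of -0.89, and of 6 stromal markers 5 did, with a median of -0.85, none of them called. The endothelial sums of heterozygous tumours were 3273.2 to 7481 when early and 1400.2 to 3201.5 when late, those of wild-type tumours 1529.1 to 3565.1 and 1918.2 to 3970.2, and their part in the Cd93 difference was not tested. Rag1 differed by -5.32, Rag2 by -4.65 and Cplx2 by -3.59 (limma adjusted p = 0.0687, 0.0745 and 0.063), and Dntt by -2.05 (limma adjusted p = 0.342). The list also had 12 lower means without the 3 libraries with a T cell sum over 5000, with a median of -1.37, and without the 3 libraries led by another transcript, and none was called in either fit. The calls of this comparison moved with single libraries, from 0 to 490 genes.

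Of 15 genes of conventional light chains and mature B cells, 13 had higher means in late tumours, with a median of 0.91. H2-Eb1, an MHC class II chain, rose by 1.99 (limma adjusted p just under the threshold, 0.05 after rounding), 1 of 15 against 0.246% of all genes called higher. Igkc differed by 2.1 (limma adjusted p = 0.258). Without the libraries with a T cell sum over 5000 the count was 11 of 15 higher, and without the 3 libraries led by another transcript 10 of 15, with none called in either fit. Of 12 T cell markers 11 had higher means in late tumours, with a median of 0.98, and of 7 plasma cell markers all 7 did, with a median of 1.49, none of them called. Summed T cell markers were 120.9 to 1626.5 in WT_early and 1107.3 to 1480.6 in HET_early, and ran to 9163.1 in WT_late and 8785.7 in HET_late. The values without the 3 highest of these libraries are those given above.

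As a description over all 19 tumours, with no p, the genes most like each member were sought among 9434 genes with a mean of at least 100. All values come from the same 19 libraries, whose B lineage sums ran from 1020.9 to 45645.1. WT_early_5 and HET_early_1, which stood far above the rest for Igll1 and Vpreb1, are among them, and their part in r was not tested. For Igll1 they were Dnajc21 (r = 0.88), Rnf169 (0.86), Plscr3 (0.83), Tmem132e (0.83) and Enpep (0.83). For Vpreb1 they were Dnajc21 (0.89), Drc7 (0.89), Gfra2 (0.87), Tmem132e (0.87) and RP23-176J13.10, a gene model with a clone name (0.86). Dnajc21 and Tmem132e stood on both lists. Enpep, also known as the BP-1 antigen of early B cells, was 897.3 in WT_early_5, 440.8 in HET_early_3, 410.7 in HET_early_1 and 393.1 in WT_early_6. Drc7 was 1078 in WT_early_5, 936.2 in WT_late_3, 904.2 in HET_early_1 and 260.1 in HET_early_4, the 4 tumours with the most Vpreb1, and at most 59.6 elsewhere.

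For Vpreb3 the most similar genes were Tcf3 (r = 0.96), Rbbp4 (0.95), Bcl7a (0.94), Strbp (0.94) and Dck (0.93), none of which was on the lists of Igll1 or Vpreb1. Tcf3 ran from 854.7 in HET_early_2 to 6996.3 in WT_late_5, and was under 2000 in the same 5 tumours that had Vpreb3 under 200.

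Genes next to the members were read for comparison, as a description. Ppm1f, a phosphatase gene 32.5 kb from Igll1, was 1126.9 in WT_early_5 and 910.7 in HET_early_1, within the range of 475.9 to 2321.9 over all tumours. Of 13 neighbours, Top3b, Slc25a1 and Mmp11 were highest in WT_early_5 and Dgcr6 was lowest there. Top3b was at 797.6, with HET_early_1 at 619.2 and a median of 505.1. Chchd10, a mitochondrial protein gene 5.3 kb from Vpreb3, was 202.8 in WT_late_1 and 176 in HET_late_1, its 2 lowest values, where Vpreb3 was 65.46 and 15.68. Its median was 1360.5. Slc25a1, the citrate carrier gene 52.2 kb from Vpreb2, was 1070 in WT_early_5 and 820.4 in HET_early_1, with a median of 511.4. Dgcr6, 71.6 kb from Vpreb2, was 71.2 in WT_early_5 and 272.8 in HET_early_1, with a median of 333.3, and Prodh, the proline dehydrogenase gene 79.1 kb away, was 88.1 and 235.6, with a median of 230.7.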

How the data were processed

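Polyadenylated RNA of 19 lymphomas was made into TruSeq libraries for a Genome Analyzer IIx, per the labels' protocols. Amplification took 10 or 8 cycles by protocol version, which was not given per library, so no value within a batch could be had. The submitters' processing notes name TopHat2 2.1.1, FastQC 0.11.5, Cuffnorm, Cuffdiff and Cufflinks 2.2.1, and the mouse builds mm10 and GRCm38. How the table was made from these, and its annotation and strand setting, is not given in the sources used here. A deposited signal value is the authors' gene count divided by 1 factor per library: 100% of values were whole reads within 0.01 reads, and DESeq2 size factors equalled the deposited factors within 1.72e-08 percent. The authors also deposited log2 fold changes and adjusted p-values for 5 comparisons.

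The 4 genes and all lists were chosen with earlier results of these data known, and 1 gene of the lists is not reported here. Values were tested as log2(value + 1), a scale that understates changes of weak genes, by limma 3.58.1 under R 4.3.3, with a trended empirical Bayes prior. The 4 group means of 19 libraries entered 1 model over 19927 genes (4 or more libraries with a value of 1 or more), with Benjamini-Hochberg adjustment over all of them and calls at an adjusted p under 0.05. The test kept its design for this unit. For late against early tumours limma called 87 genes, and on the recovered whole reads edgeR 4.0.16 called 539 and DESeq2 1.42.0 called 1878. Correlations used two-sided permutation tests in SciPy 1.17.1, exact under 10 tumours. The fits were tested on simulated data. Each library was a separate tumour, and replicate numbers only name them. Named were the 4 genes, Bptf, any gene of the fixed lists, the 5 genes most like each of Igll1, Vpreb1 and Vpreb3 (symbols starting with LOC or with Gm and a number, or ending in Rik, passed over), and neighbours, which with the motifs were chosen after the values were seen. Promoter sequences are from RefSeq (GRCm38.p6) and coding sequences and coordinates from GENCODE M21; all 4 symbols matched. Alternatives changed the added constant to 0.1, the filter, the normalisation (quantile), the test, the libraries in the fit and onset to log2 weeks.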

Additional observations from a re-analysis of the deposited data

Results flagged for a closer look

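Within each group, the highest or lowest tumour was compared with the others by its gap over the group's range (Dixon's test). Of 16 gene and group pairs tested, 11 were marked, where chance marks about 1 in 20 of groups with normal errors, and sparse counts do not have them. For Igll1 the marked tumours were WT_early_5 at 3936.3, WT_late_3 at 34.94, HET_early_1 at 1071.81 and HET_late_3 at 0.79, the last being a single read among libraries at 0. For Vpreb1 they were WT_early_5 at 2093.66, WT_late_3 at 46.99 and HET_early_1 at 385.52. For Vpreb2 they were WT_early_5 at 23.14, WT_late_3 at 2.41 and HET_late_2 at 1.44, the last again a single read. For Vpreb3 it was HET_late_3 at 2949.92. All were the highest of their group.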

How the results depend on the processing

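Of 210 values of the 4 genes under other settings, 191 kept their direction and did not pass. Values with no adjusted p were counted as not passing, so they are no sign of stability. Another 1 newly passed: Igll1 for onset averaged over genotype, at -7.85 with edgeR. The other 18 turned direction without passing in either form, and the cause was not tested. Igll1 for genotype in early tumours was -1.26 with DESeq2 and with edgeR, -0.05 with 0.1 added and -0.07 after quantile normalisation. Vpreb1 was -1.65 (DESeq2) and -1.64 (edgeR) there, and for genotype averaged over onset 0.6 without the 3 libraries led by another transcript. Vpreb2 for genotype in late tumours was 0.06 with 0.1 added, 0.01 after quantile normalisation and 0.08 without the 3 led libraries. Vpreb3 for genotype in early tumours was 0.17 with DESeq2 and with edgeR and 0.75 without the 3 led libraries. For onset in wild-type tumours Vpreb3 was 0.02 (DESeq2) and 0.01 (edgeR). Without the 3 libraries with a T cell sum over 5000, a setting chosen after seeing the data, Vpreb3 was 0.24 for onset averaged, 0.18 for onset in heterozygous and 0.3 for onset in wild-type tumours. Those libraries are all late and low for Vpreb3, so leaving them out was bound to raise its late mean.

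Leaving out 1 library turned 16 of 532 values. The ranges were -1.74 to 1.61 (Igll1), -0.46 to 2.4 (Vpreb1) and -2.38 to 0.72 (Vpreb3) for genotype in early tumours, and -0.97 to 0.46 (Vpreb1) and 0 to 0.86 (Vpreb2) for genotype averaged. They were -0.35 to 0.32 (Vpreb2) for genotype in late tumours, and -0.77 to 0.35 (Vpreb2) and -1.13 to 0.3 (Vpreb3) for onset in wild-type tumours. Igll1 for onset averaged ran from -4.11 (without HET_early_2) to -2.43 (without HET_early_1), and the smallest adjusted p was 0.105.

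Counts of genes called depended on the tool. DESeq2 called 1878 for onset averaged, 1754 and 121 for onset in heterozygous and wild-type tumours, 26, 409 and 32 for genotype averaged, early and late, and 96 for the interaction. For onset averaged, edgeR called 539, log2 weeks 8, the fit without the 3 led libraries 0 (3656 with an unadjusted p under 0.05) and that without high T cell sums 0 (2537 with an unadjusted p under 0.05). The last fit called 1 gene for genotype in early tumours. For onset in heterozygous tumours there were 18 with only the groups compared and 59 after quantile normalisation. Leaving out 1 library gave 0 to 490 for onset averaged, 0 to 257 for onset in heterozygous tumours and 0 to 2 for genotype in early and in late tumours. For onset averaged only the counts without HET_early_3 (59) and WT_late_5 (102) lay within 1.5 times of 87.

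Correlations no longer passed within heterozygous tumours (0.96 for Igll1 and Vpreb1, 0.71 for Igll1 and Vpreb3, 0.72 for Vpreb1 and Vpreb3) and, for the pairs with Vpreb3, within wild-type tumours (0.66 and 0.55), where fewer tumours were compared. With WT_early_5 and HET_early_1 left in, a setting chosen after seeing the data, all 3 pairs passed by Pearson's r within both genotypes. No paired analysis was possible because replicate numbers only follow accession order. At this depth values under about 3 reads cannot be told from 0, and Igll1 did not pass the filter when only heterozygous tumours were fitted.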
